A study of Mus musculus with 9 samples.

Results

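This account covers 9 regulators that set and maintain epithelial gene expression: the Grainyhead-like factors Grhl1, Grhl2 and Grhl3, the Ovo-like zinc finger factors Ovol1 and Ovol2, the Ets factors Elf3 and Ehf, and the splicing proteins Esrp1 and Esrp2. They were taken by symbol from a table of 51912 mouse genes. All 9 were found and all 9 passed the filter on low counts, which left 17289 genes for testing.

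The samples were organoids, small pieces of epithelium taken from mouse mammary tumours. The E-cad-KO samples (5 libraries) were Cdh1fl/fl and the WT samples (4 libraries) were Cdh1+/+. All came from FVB/NJ mice that carried MMTV::PyMT, the polyoma middle T oncogene under a viral promoter active mainly in mammary epithelium, together with the fluorescent Cre reporter (R26)pCA::mT/mG. In both groups the organoids received adeno-Cre overnight before 48 h of culture in collagen I with b-FGF2. A virus need not reach every cell, and the labels record no sorting of recombined cells and no ages. The comparison asks how these transcriptomes differ once the alleles of Cdh1, which encodes the adhesion molecule E-cadherin, can be deleted by Cre.

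These families act on shared programmes. Grainyhead-like factors bind enhancers and promoters of junction, barrier and membrane protease genes and keep them accessible. Ovol factors repress genes of the mesenchymal programme, among them Zeb1, and Zeb factors in turn repress many epithelial genes. Elf3 and Ehf belong to the epithelium-specific branch of the Ets family. Esrp1 and Esrp2 bind RNA and promote the epithelial choice of alternative exons in transcripts such as Fgfr2, Cd44, Ctnnd1 and Enah, and they are lost in many epithelial to mesenchymal transitions.

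Library totals ran from 44890302 to 64763645 counts, and levels are given as CPM, read counts divided by the TMM-scaled library size. Cdh1 itself was 86.5, 118.3, 85.2, 87.3 and 79.0 CPM in E-cad-KO 1 to 5, against 246.5, 150.3, 201.2 and 159.3 CPM in WT 1 to 4. No E-cad-KO library reached the lowest WT library. edgeR's quasi-likelihood test put the change at -1.05 on the log2 scale (SE 0.16, adjusted p = 0.0275), and the call was lost without WT 3 (adjusted p = 0.0904) or without E-cad-KO 1 (0.0664), 3 (0.0764), 4 (0.0657) or 5 (0.0644). Of all tested genes, 244 were called at an adjusted p under 0.05, 157 higher and 87 lower in E-cad-KO. With upper-quartile scaling the split was 123 higher and 151 lower. The count was 29, 54, 28, 26 and 47 without E-cad-KO 1 to 5 and 122, 105, 9 and 334 without WT 1 to 4.

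None of the 9 regulators was called. By edgeR 0 of 9 had an adjusted p under 0.05, against 1.41% of all tested genes (0.908% called higher and 0.503% called lower). Likewise 0 of 9 had an unadjusted p under 0.05 (16.7% of all tested genes), a count that was 2 without WT 1 and 1 with WT 1 and WT 4 both left out. DESeq2 called 0 of 9, against 8.12% of the 14022 genes it gave an adjusted p, and limma-voom 0 of 9, against 2.96% of all tested genes. In 0 of 9 did the E-cad-KO and WT libraries separate without overlap, against 8.11% of all tested genes. The fitted fold change was above 1 for 7 regulators and below 1 for Grhl1 and Ehf, where 48.0% of all tested genes had a positive value. The median log2 fold change was 0.079 over the 9 regulators and -0.0095 over all tested genes. The 95% interval of each change, given with its gene, differed in width from gene to gene.

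**Figure D1:**
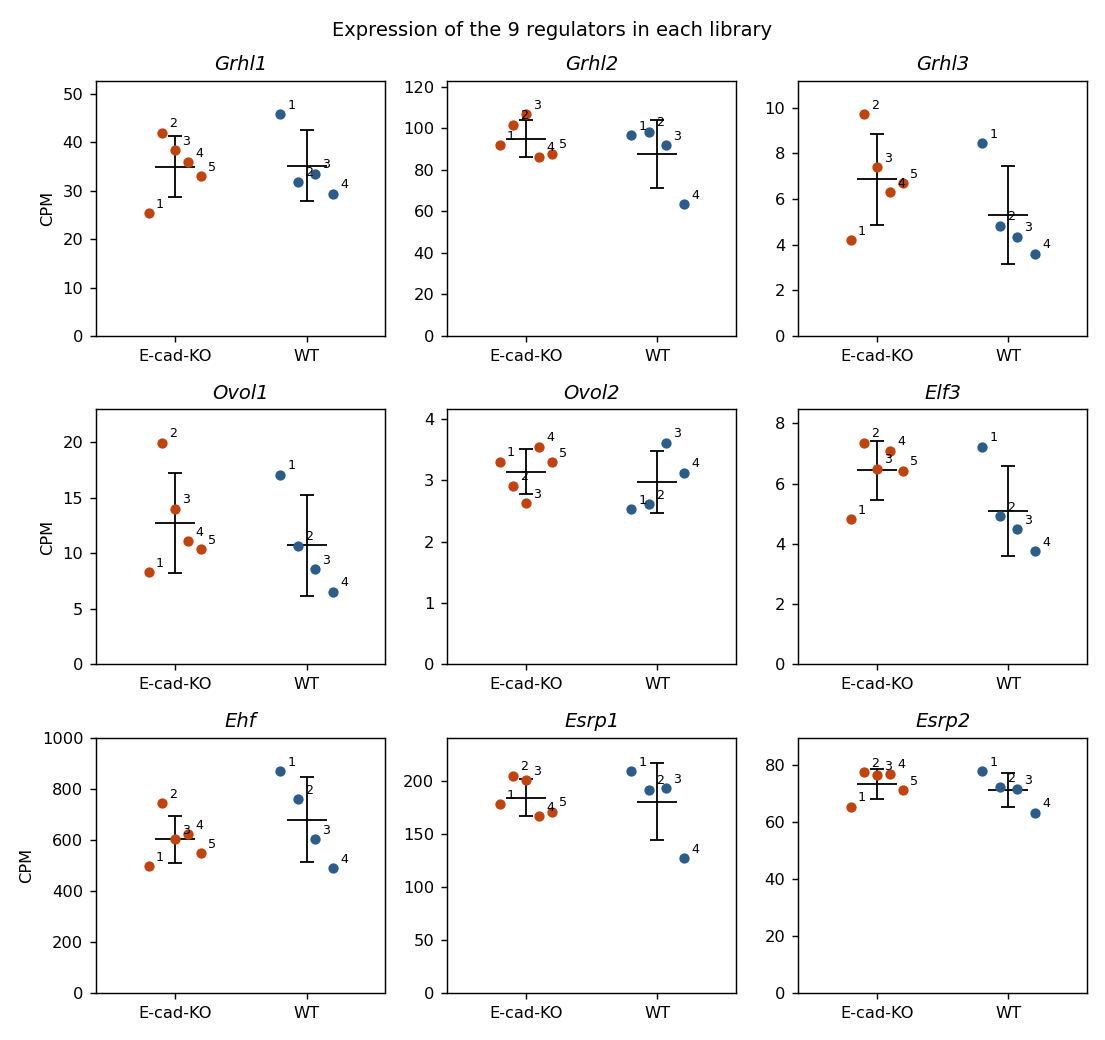
CPM of each regulator in the 5 E-cad-KO and 4 WT libraries, with replicate numbers beside the points and bars for the mean and SD of each group; every axis starts at 0. The groups overlap in all 9 panels, and WT 4 is the lowest of the WT libraries in every panel except that of Ovol2.

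Grhl2 (ENSMUSG00000022286, GRCm38 chromosome 15, 37233036 to 37363569, plus strand), the Grainyhead-like factor with a broad role in simple epithelia, was 92.0, 101.6, 106.8, 86.4 and 87.8 CPM in E-cad-KO 1 to 5. In WT 1 to 4 it was 96.7, 98.4, 91.8 and 63.4 CPM. Apart from WT 4, the WT libraries lay inside the E-cad-KO range. Grhl2 averaged 94.9 ± 8.92 CPM in E-cad-KO and 87.6 ± 16.4 CPM in WT (SD, n = 5 and n = 4), a fold change of 1.08 with a 95% interval from 0.893 to 1.32 (edgeR adjusted p = 0.706). Without WT 4 its log2 fold change was -0.011. Exons of Grhl2 overlap those of Gm16136 on the other strand. The libraries were stranded by protocol, but no source used here gives the strand setting of the counting. Whether reads of such pairs were counted apart is therefore not known.

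Grhl1 (ENSMUSG00000020656, GRCm38 chromosome 12, 24572283 to 24617391, plus strand), a regulator of desmosomal genes in skin, was 25.3, 42.0, 38.4, 35.8 and 33.0 CPM in E-cad-KO 1 to 5, against 45.8, 31.8, 33.5 and 29.4 CPM in WT 1 to 4. The highest library was WT 1 and the lowest E-cad-KO 1. The group means were 34.9 ± 6.28 CPM in E-cad-KO and 35.1 ± 7.29 CPM in WT (SD, n = 5 and n = 4), and the fold change was 0.993 (95% interval 0.773 to 1.28). Grhl3 (ENSMUSG00000037188, GRCm38 chromosome 4, 135541888 to 135573630, minus strand), needed for epidermal barrier formation and neural tube closure, was 4.20, 9.72, 7.39, 6.31 and 6.68 CPM in E-cad-KO 1 to 5 and 8.46, 4.83, 4.35 and 3.61 CPM in WT 1 to 4. WT 2 and WT 3 were below all E-cad-KO libraries but E-cad-KO 1, WT 4 was below all 5, and WT 1 was above all but E-cad-KO 2. Its fold change was 1.29 with a wide 95% interval from 0.833 to 2.0004 (edgeR adjusted p = 0.57). Without WT 1 the log2 fold change of Grhl3 was 0.69 (edgeR adjusted p = 0.195), against 0.37 with all libraries.

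Per kb of merged exon, Grhl2 made up the larger part of the Grainyhead-like level in both groups. It held 56.0% ± 4.66 of the summed level per kb in E-cad-KO and 55.3% ± 4.90 in WT. Grhl1 held 31.7% ± 2.72 in E-cad-KO and 34.6% ± 3.44 in WT, and Grhl3 12.3% ± 2.24 in E-cad-KO and 10.1% ± 2.26 in WT (SD, n = 5 E-cad-KO and n = 4 WT). The differences between the groups were about the size of the spread between libraries or less.

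Ovol1 (ENSMUSG00000024922, GRCm38 chromosome 19, 5549136 to 5560646, minus strand), a repressor of mesenchymal and cell-cycle genes in epithelia, was 8.32, 19.96, 14.01, 11.1 and 10.4 CPM in E-cad-KO 1 to 5, against 17.1, 10.7, 8.56 and 6.55 CPM in WT 1 to 4. It varied most among the 9 regulators, with the highest library, E-cad-KO 2, at 3.05 times the lowest, WT 4. Its fold change was 1.19 with a 95% interval from 0.729 to 1.94 (edgeR adjusted p = 0.757). Exons of Ovol1 overlap those of Gm31166 and AC126029.1 on the other strand.

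Ovol2 (ENSMUSG00000037279, GRCm38 chromosome 2, 144305175 to 144332146, minus strand), which represses Zeb1 and keeps mammary epithelium epithelial, had the lowest level per kb of the 9 regulators. It was 3.30, 2.91, 2.62, 3.54 and 3.30 CPM in E-cad-KO 1 to 5, against 2.53, 2.61, 3.61 and 3.12 CPM in WT 1 to 4. The range of the E-cad-KO libraries fell inside that of the WT libraries. The fold change was 1.06 (95% interval 0.824 to 1.35). Libraries held 116 to 220 reads of Ovol2, so counting error alone would give a coefficient of variation (CV) near 7.58%, beside measured CVs of 11.7% in E-cad-KO and 16.9% in WT. Its exons overlap 1700108N11Rik on the other strand.

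Elf3 (ENSMUSG00000003051, GRCm38 chromosome 1, 135253575 to 135258568, minus strand), an Ets factor of differentiating epithelia that is also induced by inflammatory signals, was 4.81, 7.35, 6.49, 7.09 and 6.42 CPM in E-cad-KO 1 to 5. In WT 1 to 4 it was 7.22, 4.92, 4.48 and 3.76 CPM. WT 3 and WT 4 stood below all 5 E-cad-KO libraries and WT 2 below all but E-cad-KO 1, while WT 1 stood above all but E-cad-KO 2. Elf3 averaged 6.43 ± 0.988 CPM in E-cad-KO and 5.09 ± 1.49 CPM in WT (SD, n = 5 and n = 4). The fold change was 1.26 with a 95% interval from 0.931 to 1.71 (edgeR adjusted p = 0.435), and without WT 1 the log2 value was 0.56 (adjusted p = 0.147), against 0.34 with all libraries. Elf3 overlaps exons of Gm26642 on the other strand.

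Ehf (ENSMUSG00000012350, GRCm38 chromosome 2, 103263433 to 103303278, minus strand), the closest relative of Elf3 among the regulators described here, had the highest level per kb of all 9. It was 496, 745, 604, 623 and 548 CPM in E-cad-KO 1 to 5, against 870, 760, 603 and 490 CPM in WT 1 to 4. The WT libraries spanned a wider range than the E-cad-KO libraries and enclosed them. The fold change was 0.886 with a 95% interval from 0.682 to 1.1501 (edgeR adjusted p = 0.666).

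Esrp1 and Esrp2, the splicing regulators, had the narrowest relative spread together with Grhl2 among the E-cad-KO libraries. Esrp1 (ENSMUSG00000040728, GRCm38 chromosome 4, 11331933 to 11386783, minus strand) was 178, 205, 201, 167 and 171 CPM in E-cad-KO 1 to 5, against 209, 192, 193 and 127 CPM in WT 1 to 4. Apart from WT 4, the WT libraries lay in the upper part of the E-cad-KO range or just above it. Its means were 184.6 ± 17.5 CPM in E-cad-KO and 180.5 ± 36.3 CPM in WT (SD, n = 5 and n = 4), and the fold change was 1.02 (95% interval 0.832 to 1.26, edgeR adjusted p = 0.939). Its exons overlap Gm26663 on the other strand.

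Esrp2 (ENSMUSG00000084128, GRCm38 chromosome 8, 106130319 to 106136974, minus strand) gave the tightest bound of the 9. It was 65.4, 77.6, 76.5, 77.1 and 71.2 CPM in E-cad-KO 1 to 5, against 77.9, 72.4, 71.6 and 63.3 CPM in WT 1 to 4. The lowest library of each group lay close to that of the other, and so did the highest. The CVs were 7.11% in E-cad-KO and 8.46% in WT, and the fold change was 1.03 with a 95% interval from 0.921 to 1.16 (edgeR adjusted p = 0.828). Esrp2 lies 466 kb from Cdh1, so any effect of sharing the chromosome segment of the floxed alleles cannot be told apart from that of the genotype. Its exons overlap Nfatc3 and 1810019D21Rik on the other strand. Within a library, Esrp1 stood at 1.73 ± 0.156 times Esrp2 per kb of merged exon in E-cad-KO and 1.73 ± 0.23 times in WT (SD, n = 5 and n = 4). The lowest ratios were 1.49 in E-cad-KO 4 and 1.38 in WT 4.

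**Figure D2:**
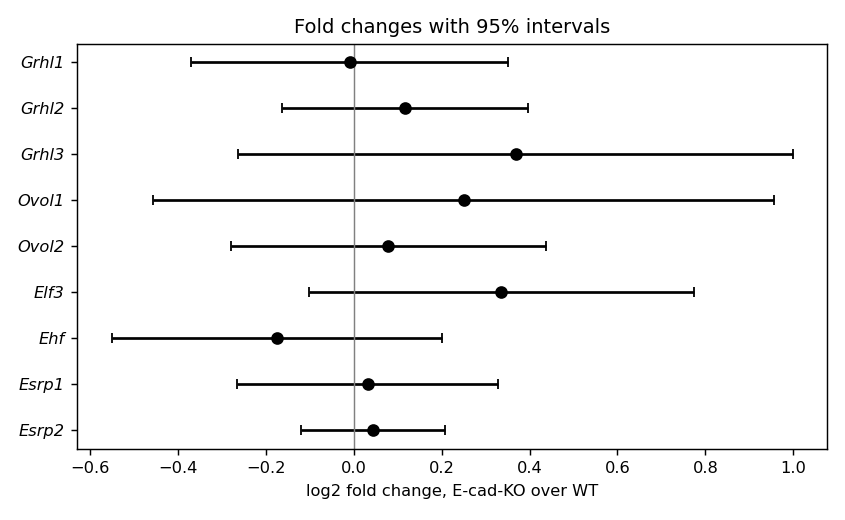
Log2 fold change of each regulator, E-cad-KO over WT, with its 95% interval from the edgeR fit; the vertical line marks no change. All 9 intervals include 0, and the interval is narrowest for Esrp2 (-0.12 to 0.21) and widest for Ovol1 (-0.46 to 0.96).

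Ordered by the mean level per kb of merged exon over the 9 libraries, the regulators ran Ehf, Esrp1, Esrp2, Grhl2, Grhl1, Ovol1, Elf3, Grhl3 and Ovol2, and the order was the same per kb of the longest transcript. On the merged-exon scale Ehf averaged 108.2 ± 16.7 CPM per kb in E-cad-KO and 122.1 ± 30.2 CPM per kb in WT. Esrp1 followed with 29.3 ± 2.77 CPM per kb in E-cad-KO and 28.6 ± 5.76 CPM per kb in WT. Esrp2 stood at 16.9 ± 1.20 in E-cad-KO and 16.4 ± 1.39 in WT, Grhl2 at 11.02 ± 1.04 in E-cad-KO and 10.2 ± 1.90 in WT, and Grhl1 at 6.30 ± 1.13 in E-cad-KO and 6.34 ± 1.32 in WT. Among the 4 lowest, Ovol1 stood at 3.66 ± 1.29 CPM per kb in E-cad-KO and 3.07 ± 1.31 in WT, and Elf3 at 2.90 ± 0.446 in E-cad-KO and 2.30 ± 0.674 in WT. Grhl3 stood at 2.46 ± 0.714 CPM per kb in E-cad-KO and 1.90 ± 0.773 in WT, and Ovol2 at 1.48 ± 0.173 in E-cad-KO and 1.40 ± 0.237 in WT (SD, n = 5 E-cad-KO and n = 4 WT for each gene). Within mean ± SD, Ovol1, Elf3 and Grhl3 overlapped one another in both groups and Grhl3 overlapped Ovol2 in WT, while the other neighbours in this order did not overlap.

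Most regulators were high or low in the same libraries. WT 4 was the lowest of the 9 libraries for 7 regulators, and E-cad-KO 1 was the lowest of its own group for 6. WT 1 was the highest WT library for 7 regulators, and E-cad-KO 2 the highest E-cad-KO library for 7. Over the 36 pairs of regulators, Pearson's r of log2 CPM across the 9 libraries was positive for 28, with a median of 0.71. The other 8 pairs were those with Ovol2, whose r with the other regulators ran from -0.63 to -0.28. Without WT 4 the median r was 0.57 with 28 pairs positive, and without both WT 1 and WT 4 it was 0.47 with 27 positive. These values are a description, since the genes of a library share its depth, scaling and cell content.

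The same libraries differed in other genes. Zeb1, a repressor of epithelial genes, was 6.41, 3.38, 5.49, 7.40 and 8.47 CPM in E-cad-KO 1 to 5, against 2.11, 4.33, 9.63 and 25.8 CPM in WT 1 to 4. Its relative Zeb2 was 9.06, 4.97, 8.59, 9.03 and 10.9 CPM in E-cad-KO 1 to 5, against 2.87, 5.82, 13.0 and 26.5 CPM in WT 1 to 4. Both were highest in WT 4 and lowest in WT 1, as was Prrx1 (54.7 and 8.73 CPM). Other mesenchymal factors differed from this. Snai2 went the opposite way, highest in WT 1 (29.0 CPM) and lowest in WT 4 (12.4 CPM). Snai1, Twist1 and Twist2 were lowest in WT 1 but not highest in WT 4. Foxc2 was highest in WT 4, at only 0.913 CPM. Of 10 macrophage markers, 9 were highest in WT 4. Their sum ran from 346 to 409 CPM in E-cad-KO and from 378 CPM to 531 CPM (WT 4) in WT. Cd14 held the largest share in every library but WT 4. Without Cd14 the sum ran from 25.6 to 151.5 CPM in E-cad-KO and from 17.4 CPM to 364 CPM in WT, the last in WT 4, and Fcgr1 was at 0 in at least 1 library. The 8 epithelial markers summed to between 4479 and 5788 CPM in E-cad-KO and between 3537 (WT 4) and 4906 CPM in WT. Of these, edgeR called 1, Cdh1, against 1.41% of all tested genes, with 5 others higher at an unadjusted p under 0.05 (16.7% of all tested genes in either direction). DESeq2 called 4 of the 8 (8.12% of its genes) and limma-voom 3 (2.96%). Both counts include the targeted Cdh1, which was lower, and Cldn7 and Krt8, which were higher. By edgeR Krt8 had a log2 fold change of 0.39 (adjusted p = 0.053). Krt19 went the other way, at a log2 fold change of -0.57 (SE 0.28, edgeR adjusted p = 0.351). The 6 basal markers summed to between 3455 and 7795 CPM in E-cad-KO and between 2370 (WT 4) and 11466 CPM (WT 1) in WT. Krt14 held the largest share of that sum, at 9278 CPM in WT 1 and 1874 CPM in WT 4. Krt5 (2034 and 284 CPM) and Trp63 (109.4 and 46.2 CPM) were also higher in WT 1 than in WT 4. The rest of the list went the other way. Acta2 was 35.0 CPM in WT 1 and 144.0 CPM in WT 4, Myh11 1.41 and 4.24 CPM, and Oxtr 8.46 and 17.3 CPM. The 10 fibroblast markers, 5 of them highest in WT 4, summed to between 1319 and 1808 CPM in E-cad-KO and between 995 and 2174 CPM (WT 3) in WT, with WT 4 at 1784 CPM. Without Postn, the most abundant, they summed to between 137 and 230 CPM in E-cad-KO and between 69.2 and 364.5 CPM (WT 4) in WT. Endothelial markers summed to at most 6.98 CPM in E-cad-KO and 12.9 CPM (WT 4) in WT, lymphocyte markers to at most 0.497 CPM in E-cad-KO and 0.566 CPM in WT with Cd3e at 0 in all libraries, and adipocyte markers to at most 7.96 CPM in E-cad-KO and 40.3 CPM (WT 4) in WT. The part of these differences in the values of the regulators was not tested, and in RNA from whole gels, fewer cells of a type and less RNA per cell cannot be told apart.

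**Figure D3:**
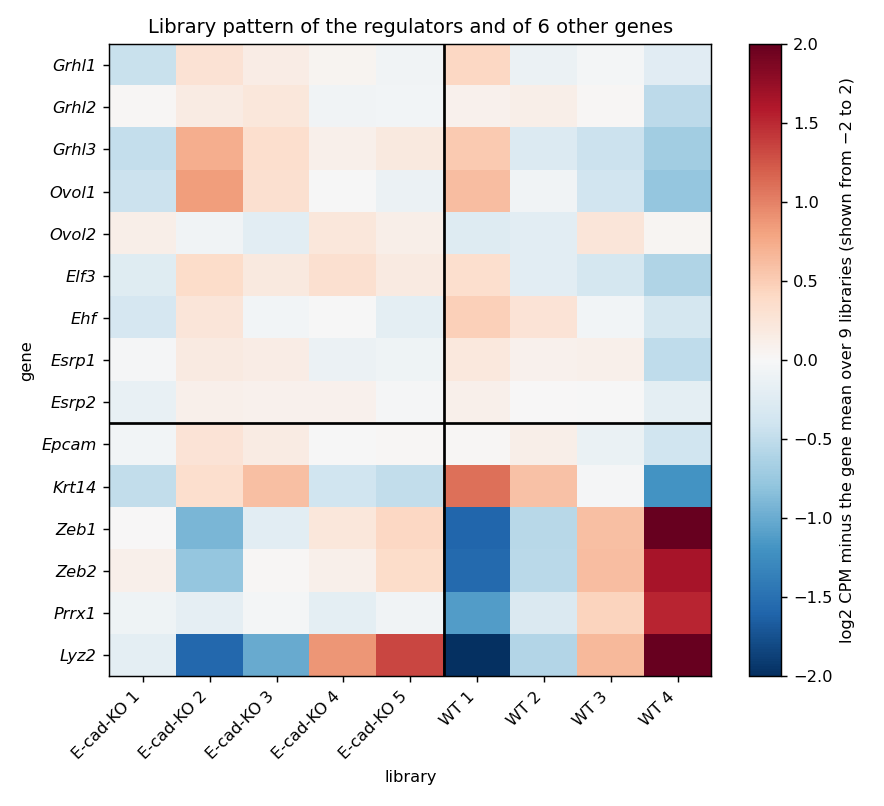
Log2 CPM of the 9 regulators (top) and of Epcam, Krt14, Zeb1, Zeb2, Prrx1 and Lyz2 (bottom) in each library, after subtracting each gene's mean over the 9 libraries; colours are limited to the range from −2 to 2. WT 4 is pale to dark blue for every regulator except Ovol2, while Zeb1, Zeb2, Prrx1 and Lyz2 are at their highest there.

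Ratios within a library remove what scales all regulators alike. Of the 36 ratios between regulators, 2 separated the groups without overlap, where 8.11% of single tested genes did. The ratio of Ehf to Elf3 per kb of merged exon was 41.0, 40.3, 37.0, 35.0 and 33.9 in E-cad-KO 1 to 5, against 47.9, 61.4, 53.5 and 51.8 in WT 1 to 4. The highest E-cad-KO library stayed below the lowest WT library. The means were 37.4 ± 3.15 in E-cad-KO and 53.7 ± 5.65 in WT (SD, n = 5 and n = 4), a log2 difference of -0.52. The ratio of Grhl1 to Elf3 in CPM was the other, at 5.42 ± 0.375 in E-cad-KO and 7.02 ± 0.733 in WT (SD, n = 5 and n = 4). Both share Elf3, both were singled out after their values were seen, and neither was tested. Elf3 counts were low, from 206 to 435 reads a library.

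**Figure D4:**
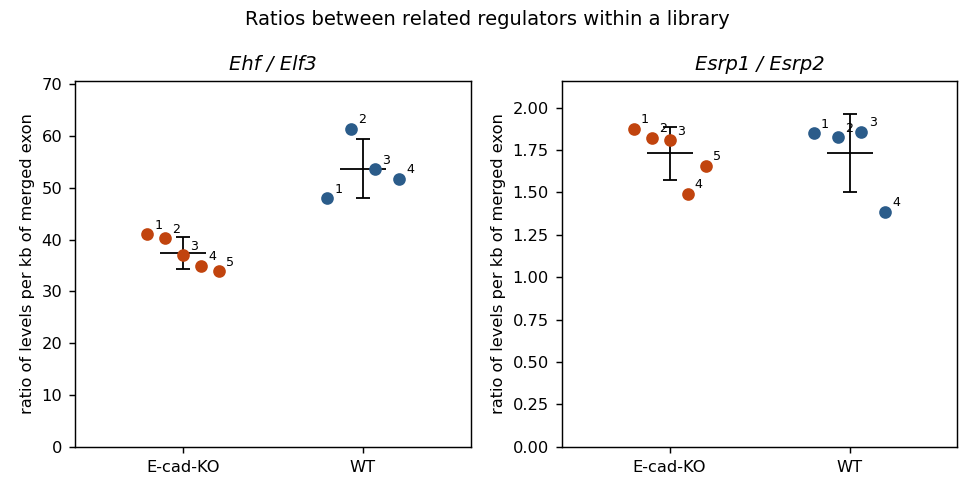
Ratio of levels per kb of merged exon within each library, Ehf over Elf3 (left) and Esrp1 over Esrp2 (right), for 5 E-cad-KO and 4 WT libraries, with mean and SD bars and replicate numbers; axes start at 0. The Ehf to Elf3 ratios do not overlap between the groups, and the Esrp1 to Esrp2 ratios do.

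The RefSeq promoter table (GRCm38.p6) held 4 of the 9 regulators: Grhl1, with 2 start sites, Grhl3, Ovol2 and Elf3. The 250 bases upstream of each start were searched on both strands for CACCTG, the E-box that Zeb and Snai factors bind, for AACCNGTT, a Grainyhead-like motif, and for CCGTTA, an Ovol motif, which can share letters with AACCNGTT where both match. CACCTG was present in 17.2% of 32851 such windows, AACCNGTT in 1.79% and CCGTTA in 2.18%. Elf3 and Grhl3 held CACCTG once each, its first base 140 and 19 bases upstream of the start. Grhl1 and Ovol2 held none of these motifs in their windows, and Elf3 and Grhl3 no AACCNGTT or CCGTTA. The windows of Elf3 (chr1:135258473-135258722), Grhl3 (chr4:135573633-135573882) and Ovol2 (chr2:144331363-144331612), all on the minus strand, are shown 5′ to 3′ as examples with and without the E-box, with CACCTG in capitals.
Elf3: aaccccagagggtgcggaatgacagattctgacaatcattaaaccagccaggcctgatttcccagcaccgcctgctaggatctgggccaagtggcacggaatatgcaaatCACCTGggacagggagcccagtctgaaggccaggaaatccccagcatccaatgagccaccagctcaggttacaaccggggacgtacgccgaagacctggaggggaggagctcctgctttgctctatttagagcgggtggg
Grhl3: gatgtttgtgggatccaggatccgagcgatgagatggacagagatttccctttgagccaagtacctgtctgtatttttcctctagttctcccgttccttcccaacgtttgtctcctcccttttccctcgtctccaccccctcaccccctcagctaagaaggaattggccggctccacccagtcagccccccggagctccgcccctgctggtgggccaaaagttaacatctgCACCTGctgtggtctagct
Ovol2: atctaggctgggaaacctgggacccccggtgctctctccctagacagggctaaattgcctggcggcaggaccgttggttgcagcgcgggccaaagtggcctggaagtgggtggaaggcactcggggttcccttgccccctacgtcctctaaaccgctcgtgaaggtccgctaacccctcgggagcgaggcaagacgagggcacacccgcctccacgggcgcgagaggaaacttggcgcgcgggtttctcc
A match describes letters in the window, and no binding was measured. Of the 4 regulators with a window, Grhl1, Elf3 and Grhl3 were lowest among WT libraries in WT 4, and Ovol2 was not. Any link between the motifs and these levels was not tested.

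Of 9 related genes of the Grainyhead-like, Ovol and Ets families, 8 were tested, Ovol3 being too low with 9 reads in all. By edgeR 0 were called (1.41% of all tested genes), and the median log2 fold change was 0.12. At an unadjusted p under 0.05, 2 were higher and 1 lower, where 16.7% of all tested genes had such a p in either direction. DESeq2 (8.12% of its genes called) and limma-voom (2.96%) each called 1, Elf5. Elf5, the Ets factor of luminal progenitors and milk secretion, was 249, 325, 258, 295 and 282 CPM in E-cad-KO 1 to 5, against 412, 395, 356 and 300 CPM in WT 1 to 4. WT 4 lay within the E-cad-KO range and the other WT libraries above it. edgeR gave a log2 fold change of -0.38 (SE 0.10, adjusted p = 0.103), and without WT 4 it was -0.46 (adjusted p = 0.0415). The Ets factors Elf2 (0.16), Elf4 (0.27) and Elf1 (0.14) and the Grainyhead relative Ubp1 (0.10) had positive log2 fold changes, none called. Elf1, Elf2 and Ubp1 overlap exons of genes on the other strand. Spdef, another epithelial Ets factor, stayed under 1 CPM in every library.

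Of 10 other epithelial transcription factors, edgeR called 0 (1.41% of all tested genes), as did DESeq2 (8.12% of its genes) and limma-voom (2.96%). By edgeR 1 was higher and 1 lower at an unadjusted p under 0.05 (16.7% of all tested genes), with a median log2 fold change of 0.054. Sox9, a factor of progenitor cells, had a log2 fold change of 0.39 (SE 0.13) and Gata3, a factor of luminal identity, of -0.21 (SE 0.08), while Klf5 stood at 0.38 (SE 0.20). Among 8 transcription factors of the mesenchymal programme edgeR called 0, limma-voom 0 and DESeq2 2 (8.12% of its genes called). By edgeR 2 were higher and 0 lower at an unadjusted p under 0.05 (16.7% of all tested genes in either direction), with a median log2 fold change of -0.15. Snai1 was 6.02, 5.85, 7.16, 7.17 and 6.67 CPM in E-cad-KO 1 to 5, against 2.50, 3.58, 4.97 and 5.35 CPM in WT 1 to 4, and Twist1 was 4.53, 4.78, 5.56, 4.86 and 4.23 CPM in E-cad-KO 1 to 5, against 2.24, 3.54, 3.05 and 4.16 CPM in WT 1 to 4. For both, every E-cad-KO library was above every WT library, where 8.11% of all tested genes separated the groups in either direction. The log2 fold changes were 0.68 (SE 0.21, edgeR adjusted p = 0.133) and 0.56 (SE 0.18, 0.152). Zeb1 (-0.74, SE 0.63), Zeb2 (-0.50, SE 0.55) and Prrx1 (-0.58, SE 0.44) had negative log2 fold changes. Without WT 4 they stood at 0.22, 0.24 and 0.073, and with WT 1 also left out at -0.16, -0.14 and -0.23. Snai2 had a log2 fold change of -0.12 (SE 0.25).

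Of 12 genes that Grainyhead-like or Ovol factors are known to bind or control, edgeR called 0, with 6 higher and 0 lower at an unadjusted p under 0.05 (16.7% of all tested genes had such a p in either direction). The log2 fold change was positive for 9 and negative for 3, namely Dsg1a (-0.67), Rab25 (-0.11) and Prss8 (-0.089). The median was 0.27, beside -0.0095 over all tested genes. The list was chosen with earlier results of these data known, and Cldn3, Cldn7 and Epcam are also among the 8 epithelial markers. DESeq2 (8.12% of its genes called) and limma-voom (2.96%) each called 2, Cldn7 and Cldn4. Cldn7, a claudin of simple epithelia, was 104.2, 114.7, 114.0, 102.0 and 113.1 CPM in E-cad-KO 1 to 5, against 84.4, 93.4, 80.8 and 65.1 CPM in WT 1 to 4. The groups did not overlap, as was so for 8.11% of all tested genes. edgeR put its log2 fold change at 0.44 (SE 0.09, adjusted p = 0.0511), and it was called without WT 2 (adjusted p = 0.0479) or WT 4 (0.0393). It was also called by edgeR with median-of-ratios factors (0.0496) or upper-quartile factors (0.0445). So it was with every gene with at least 1 count (0.0410) and genes of at least 1 CPM in 4 libraries (0.0398). In all, 8 of the 18 alternatives called Cldn7, and over the 18 its adjusted p ran from 0.0015 to 0.146. Settings without a call included each E-cad-KO library left out, WT 1 or WT 3 left out, and the replicate block. Cldn4, a claudin under direct control of Grhl2, was 72.8, 113.7, 95.3, 92.6 and 87.2 CPM in E-cad-KO 1 to 5, against 75.0, 57.2, 34.1 and 46.2 CPM in WT 1 to 4, and only WT 1 reached into the E-cad-KO range. edgeR put its log2 fold change at 0.80 (SE 0.21, adjusted p = 0.0981). Cldn3 (0.41), the membrane protease gene St14 (0.31), its inhibitor gene Spint1 (0.35) and the integrin activator gene Fermt1 (0.22) had the next smallest p-values. All 4 were lowest in WT 4, as were 7 of the 9 regulators. Cldn3 overlaps exons of Wbscr25 on the other strand.

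Gene-level counts cover all exons, so they cannot show which isoform Esrp1 and Esrp2 favoured. The total levels of 10 genes whose exons they regulate gave 0 calls by edgeR (1.41% of all tested genes), DESeq2 (8.12% of its genes) and limma-voom (2.96%). By edgeR they gave 0 unadjusted p-values under 0.05 (16.7% of all tested genes) and a median log2 fold change of 0.10. Magi1 (-0.24, SE 0.12), Scrib (0.17, SE 0.09) and Arhgef11 (0.14, SE 0.08), which overlaps exons of Lrrc71 on the other strand, had the smallest p-values. Among 9 other splicing regulators of epithelial and mesenchymal exons, edgeR and limma-voom called 0 and DESeq2 2 (8.12% of its genes called). By edgeR 4 were higher and 0 lower at an unadjusted p under 0.05, where 16.7% of all tested genes had such a p in either direction. Their median log2 fold change was 0.10. Rbfox2, which promotes mesenchymal exon choice, averaged 100.9 ± 2.20 CPM in E-cad-KO and 90.2 ± 3.33 CPM in WT (SD, n = 5 and n = 4), and Qk, which also acts in mesenchymal splicing, averaged 108.4 ± 8.60 CPM in E-cad-KO and 92.3 ± 4.90 CPM in WT. For both, the libraries of the groups did not overlap, as was so for 8.11% of all tested genes. The log2 fold changes were 0.16 (SE 0.05, edgeR adjusted p = 0.105) and 0.23 (SE 0.07, 0.115). Mbnl1, a splicing factor of differentiation, stood at 0.17 (SE 0.06).

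The genes whose library pattern was most like each regulator were found among 10712 tested genes with a mean of at least 5 CPM, by Pearson's r of log2 CPM over the 9 libraries. Grhl2 was followed most closely by Lamb3, a laminin chain gene (r = 0.99), and Epha1, an ephrin receptor gene (0.99). Grhl1 was nearest to Elovl4, a very long chain fatty acid elongase gene (0.97), and Sprr1a, a cornified envelope gene (0.96), and Grhl3 to Mxd1 (0.97) and the catenin gene Ctnnd1 (0.96), whose exons Esrp1 also regulates and which shares 4482 exon bases with Gm28635 on its own strand. Ovol1 was nearest to the ubiquitin ligase gene Fbxw7 and to Flt1 (both 0.98), and Ovol2 to Zfp521 and Natd1 (both 0.92). Elf3 was nearest to the ubiquitin conjugating enzyme gene Ube2h (0.98) and Clmn (0.97), and Ehf to the adaptor gene Ap1g1 and the retinoic acid binding gene Crabp2 (both 0.97). Esrp1 was nearest to Tmem164 (0.99) and Sec63 (0.98), and Esrp2 to Xylb and Scel, a cornified envelope gene (both 0.96). Without WT 4 these r values ran from 0.93 to 0.98. They are the highest of 10712 for each regulator and so are high by choice. None of these 18 genes was called between the groups by edgeR.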

How the data were processed

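RNA sequencing was done on tumour organoids of 5 E-cad-KO and 4 WT samples. The authors deposited 1 table of raw counts per Ensembl gene. The labels' protocols describe whole gels flash frozen, RNeasy columns and stranded TruSeq mRNA libraries. The submitters' processing notes name Bowtie2, TopHat2, HTSeq and GRCm38. No version, annotation or strand setting is given in the sources used here. The series' text calls the samples biological replicates without naming animals, so the p-values reflect only how far these samples spread. Library totals of 44890302 to 64763645 counts make 1 CPM at least 44.2 reads. No library pair agreed within sampling noise (smallest chi-square per degree of freedom 11.55).

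The test was edgeR 4.0.16 (R 4.3.3): TMM factors, filterByExpr, robust quasi-likelihood F-test, group as the only term, two-sided, Benjamini-Hochberg over 17289 genes, called at an adjusted p under 0.05. The standard error is the log2 fold change divided by the square root of F, and intervals are 95% from the t distribution of the fit. Correlations used log2 CPM with a prior count of 2. Symbols were found for 51633 genes. Positions, exon lengths and overlaps came from GENCODE M21 (GRCm38). Overlaps are not stated with every gene named. Exons of Zeb1, Zeb2, Twist2, Gata3 and Krt8, for example, also overlap those of other genes.

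The members and lists were chosen with earlier results of these data known. Named genes are the 9 regulators, Cdh1, the called members and the 3 to 6 smallest p-values of each list, and the 2 most alike genes of each regulator. Some other genes of the lists are named beside them. Alternatives were median-of-ratios or upper-quartile factors, 2 other filters, DESeq2 1.42.0, limma-voom (limma 3.58.1), non-robust dispersions, a replicate block, each library left out, and WT 1 and WT 4 both left out. The fit was tested on simulated data.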

Additional observations from a re-analysis of the deposited data

Results flagged for a closer look

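Of the genes named here, 51 were each tested in both groups for a library standing far from the rest. Chance alone would flag about 5% of these 102 sets. In all, 5 stood out, none of them among the 9 regulators. Elf1, an Ets relative of Elf3 and Ehf, was 73.9 CPM in WT 4, while the other WT libraries held 97.8 to 100.1 CPM. Cd68, a macrophage marker, was 22.02 CPM in WT 4, against 3.31 to 5.99 CPM in the other WT libraries. Gata3 was 38.6 CPM in WT 2, against 42.4 to 43.1 CPM in the other WT libraries, and Krt8 was 1328 CPM in WT 2, against 1099 to 1131 CPM. Cdh1 was 118.3 CPM in E-cad-KO 2, against 79.0 to 87.3 CPM in the other E-cad-KO libraries, so the targeted transcript was highest there.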

How the results depend on the processing

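All 9 regulators stayed uncalled under all 18 alternatives, the smallest adjusted p being 0.147 (Elf3 without WT 1). Near 0 the sign was not fixed. Grhl1 had a log2 fold change of 0.012 with the replicate block and 0.097 with WT 1 and WT 4 both left out, and ran from -0.086 to 0.15 with 1 library left out. Esrp1 had -0.032 by limma-voom, -0.059 with WT 1 and WT 4 both left out, and ran from -0.10 to 0.12 with 1 library left out. Esrp2 (-0.0084 to 0.095) and Grhl2 (-0.011 to 0.18) turned negative without WT 4. With 1 library left out the ranges were 0.21 to 0.69 for Grhl3, 0.031 to 0.57 for Ovol1, 0.014 to 0.19 for Ovol2, 0.22 to 0.56 for Elf3 and -0.30 to -0.030 for Ehf.

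The count of called genes, 244, was 1138 by DESeq2, 511 by limma-voom, 79 with WT 1 and WT 4 both left out, and 9 to 334 with 1 library left out; the cause was not tested. Upper-quartile scaling moved the median of all genes most, by -0.032. Other signs that turned were Cd68 (0.049 by limma-voom, 0.38 without WT 1 and WT 4, -0.86 to 0.34 with 1 library left out), Mrc1 (0.076, 0.31, -1.03 to 0.61 likewise), Lyz2 (0.12 without WT 1 and WT 4, -1.32 to 0.56), Magi1 (0.0012 without WT 1 and WT 4), Zeb1 (-1.08 to 0.22), Zeb2 (-0.82 to 0.24), Prrx1 (-0.86 to 0.073) and Snai2 (0.00091 with the replicate block, -0.31 to 0.082).

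The samples share only replicate numbers: same-numbered libraries deviated with r of -0.32, 0.23, -0.030 and 0.28, and 1 of 4 WT libraries correlated best with its own number. With the replicate block, in which E-cad-KO 5 has no partner, edgeR called 0 genes (2418 at an unadjusted p under 0.05) and Cdh1 stood at -0.99 (adjusted p = 0.171). The bounds on Ovol1 and Grhl3 allow changes of nearly 2-fold.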

Other observations

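As a description chosen after the values were seen, each regulator was also set against Epcam, a surface protein of epithelial cells, within its library. Ehf stood at 79.3 ± 7.14 reads per 100 Epcam reads in E-cad-KO and 99.7 ± 13.2 in WT (SD, n = 5 and n = 4). Its ratios ran from 71.9 to 87.6 in E-cad-KO and from 90.1 to 118.9 in WT, without overlap. The ratios of all other regulators overlapped between the groups. Of single tested genes, 8.11% separated the groups in CPM, and the Ehf ratio was not tested. Esrp1 stood at 24.3 ± 1.03 in E-cad-KO and 26.6 ± 2.92 in WT, Grhl2 at 12.5 ± 0.734 in E-cad-KO and 12.9 ± 0.978 in WT, and Esrp2 at 9.72 ± 0.689 in E-cad-KO and 10.6 ± 0.972 in WT. Grhl1 stood at 4.58 ± 0.537 in E-cad-KO and 5.22 ± 0.885 in WT, and Ovol2 at 0.419 ± 0.0812 in E-cad-KO and 0.452 ± 0.128 in WT. The other 3 were higher in E-cad-KO by less than the SD of WT: Grhl3 stood at 0.892 ± 0.185 in E-cad-KO and 0.776 ± 0.253 in WT, Elf3 at 0.847 ± 0.109 in E-cad-KO and 0.749 ± 0.160 in WT, and Ovol1 at 1.65 ± 0.418 in E-cad-KO and 1.56 ± 0.523 in WT. On this scale the spread of log2 values among WT libraries was 0.11 for Grhl2 and 0.16 for Esrp1, against 0.30 and 0.32 in CPM, while for Ovol2 it was 0.42, against 0.24 in CPM. Epcam, which is also among the 12 genes listed as bound or controlled by these factors, had a log2 fold change of 0.17 (SE 0.11, edgeR adjusted p = 0.488).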
